A study of Homo sapiens with 7 samples.

Results

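The genes described here are the replication-dependent histone genes of the 4 human histone clusters, which make the bulk of the histone protein that packs newly copied DNA. Members were all non-control array probes whose gene name begins with HIST1H, HIST2H, HIST3H or HIST4H, a choice that uses no measured value. This gave 68 gene names of 34809 on the array, read by 80 of its 42405 probes. They were measured in ACHN, a human renal cell carcinoma line, infected with a pBabe-hygro retrovirus that was either an empty vector (EV, 4 samples) or carried the cDNA of the long non-coding RNA HOTAIR (HOTAIR, 3 samples). Both groups therefore carry the retroviral backbone and went through hygromycin selection. The sources used here do not say whether samples of a group came from separate infections or cultures, so the p-values below measure the spread between these samples, which may be technical. The comparison asks how the histone genes stood when HOTAIR was overexpressed in these cells.

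Each nucleosome holds pairs of the core histones H2A, H2B, H3 and H4, and the linker histone H1 binds the DNA between nucleosomes. Most of their genes lie in clusters, and many copies of each gene encode the same or nearly the same protein. Their transcription is coupled to DNA synthesis in S phase, and their mRNAs normally end in a conserved stem-loop in place of a poly(A) tail. The stem-loop is bound by SLBP, which acts in the 3′ end cut, in export and in translation of the mRNA. Some histone genes also give polyadenylated transcripts. The arrays were labelled from 100 ng of total RNA with a low-input Cy3 kit. Such kits commonly prime the first strand with oligo-dT, which the sources used here do not state for these samples. Fewer cells in S phase and less histone RNA per cell cannot be told apart in such bulk samples.

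By probe positions in genome build hg19, the 63 HIST1 probes lay on chromosome 6 between 25726563 and 27861647. The HIST2 probes with a position lay on chromosome 1 between 149397120 and 149859244, the 3 HIST3 probes on chromosome 1 between 228612646 and 228646251, and the single HIST4 probe on chromosome 12 between 14924006 and 14924065. Of the 68 gene names, 66 were matched to a current RefSeq gene through the accession of a probe. For 7 probes the array annotation lists transcripts of several RefSeq genes, among them the probe of HIST2H4B, which also stands for H4C14, and a probe of HIST1H2BK, which also stands for H2BC13, H2BC15 and H2BC18.

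The letters of the stem-loop were searched for in every probe as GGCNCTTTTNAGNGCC, on the strand of the probe, where N is any base. They were present in 6 of the 80 histone probes and in 7 of all 42405 probes (0.0165%). The windows below show them, with the stem-loop letters in capitals and the flanking bases of the transcript in lower case, because these probes read the very end of the mature transcript. The positions given are those of the whole probe, and each window is a part of it.
HIST1H2AI (hg19, chr6:27776386-27776445, plus strand): accaaaGGCTCTTTTCAGAGCCacct
HIST1H2BE (chr6:26184399-26184458, plus strand): cccaaaGGCTCTTTTCAGAGCCactc
HIST1H2BF (chr6:26200153-26200212, plus strand): cccaaaGGCTCTTTTAAGAGCCa
HIST1H3H (chr6:27778255-27778314, plus strand): cccaaaGGCTCTTTTCAGAGCCaccc
HIST1H4K (chr6:27798954-27799013, minus strand): acaaaaGGCCCTTTTTAGGGCCcc
HIST2H3A (chr1:149812261-149812320, minus strand): ccaaaaGGCTCTTTTCAGAGCCacc

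Probes of one class are alike in sequence, which limits how far a signal can be given to 1 gene. The H4 genes show this best. The probe of HIST2H4B, an H4 gene whose values are described below, overlaps probes of 4 other H4 genes. Capitals mark the bases that differ from the HIST2H4B probe where they overlap it.
HIST2H4B (hg19, chr1:149832491-149832550, minus strand): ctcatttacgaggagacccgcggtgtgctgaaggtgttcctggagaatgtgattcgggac
HIST1H4F (chr6:26240818-26240877, plus strand): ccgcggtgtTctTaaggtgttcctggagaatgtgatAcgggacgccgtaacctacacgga
HIST1H4H (chr6:26285497-26285556, minus strand): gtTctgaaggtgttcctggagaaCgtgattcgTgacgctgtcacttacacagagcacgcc
HIST1H4I (chr6:27107225-27107284, plus strand): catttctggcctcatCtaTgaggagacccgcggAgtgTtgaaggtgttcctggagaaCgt
HIST1H4K (chr6:27799089-27799148, minus strand): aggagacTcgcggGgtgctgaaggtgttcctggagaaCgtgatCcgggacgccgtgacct
The overlap is 43 bases with 3 differences for HIST1H4F, 36 bases with 3 differences for HIST1H4H, 50 bases with 5 differences for HIST1H4I and 50 bases with 4 differences for HIST1H4K. Over all members, 14 of 80 probes were at least 90% identical, over at least 30 bases, to a probe of another histone gene. Cross-hybridisation between such probes was not tested.

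The array signals were intensities, scaled to each array's 75th percentile and taken as log2, so a value of 0 is a probe at that percentile. Only probes that the scanner software put well above background, on all EV arrays or on all HOTAIR arrays, were tested. All 7 arrays were similar in brightness and in the share of probes detected, which do not measure RNA integrity. Spots flagged as outliers ranged from 408 on EV 2 to 600 on EV 4. The unscaled 75th percentile lay between 523 and 649 intensity units, and from 48.7% to 52.1% of probes were well above background. The arrays lay on 1 slide, with the EV samples in one row and the HOTAIR samples in the other, so the row on the slide cannot be told apart from the group. The probe of HOTAIR, outside the histone genes, was well above background on all 3 HOTAIR arrays and on none of the 4 EV arrays. Of the 8 renal markers, 7 (PAX8, PAX2, KRT8, KRT18, VIM, CDH2 and LHX1) were well above background on all 7 arrays and CA9 on none, and none of the 7 passed the test between groups. Among markers of blood, endothelium and fibroblasts, CD14 was well above background on all 7 arrays, and CD3E, DCN and LUM were so on none. CDH5 was so on 4 arrays (3 EV, 1 HOTAIR), the brightest probe of PTPRC on 3 (2 EV, 1 HOTAIR) and that of PECAM1 on 1 (EV), and none of these 3 could be tested.

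Most histone genes were measured in ACHN. Of the 80 probes, 68 passed the filter (85.0%), against 48.2% of all probes, and they covered 59 of the 68 genes. All 14 H3 probes were measured, as were 17 of 19 H4 probes, 16 of 18 H2A probes, 18 of 23 H2B probes and 3 of 6 H1 probes. By cluster these were 57 of 63 HIST1 probes, 8 of 13 HIST2 probes, 2 of 3 HIST3 probes and the HIST4 probe. The measured linker genes were HIST1H1C, HIST1H1D and HIST1H1E, while HIST1H1A, HIST1H1B and the testis linker gene HIST1H1T were well above background on 0 of the 7 arrays. The same was true of the testis genes HIST1H2AA and HIST1H2BA. The probe of HIST3H3, which encodes the testis H3 variant, was well above background on all 7 arrays. Its closest histone probe, that of HIST2H3D, was 85% identical to it over 40 bases. Cross-hybridisation was not tested, so the signal cannot be given to HIST3H3 alone. Of all 80 probes, 66 were well above background on all 7 arrays and 11 on none. The remaining 3 were on 1 array (a probe of HIST2H2BF, not tested), on 5 arrays (HIST4H4) and on 6 arrays (a probe of HIST1H2AC).

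Arrays EV 2 and HOTAIR 3 stood apart from the others of their groups in the histone genes, though not in these alone. On EV 2, 57 of the 68 measured probes were below the mean of the other 3 EV arrays, with a median log2 difference of -0.55, against -0.02 over all 20419 tested probes. On HOTAIR 3, 56 of the 68 were below the mean of the other 2 HOTAIR arrays, with a median of -0.38, against -0.01 over all tested probes. On EV 2, 36 of the 68 (52.9%) were more than 0.5 below the other EV arrays, as were 3603 of all tested probes (17.6%). Both arrays were below the others of their group for 52 of the 68 (76.5%) and for 38.4% of all tested probes. Between arrays of one group, histone probes were also more spread than other probes. Their median SD was 0.47 over the EV arrays and 0.26 over the HOTAIR arrays, against 0.23 and 0.17 for all tested probes. The histone probes were therefore compared with all 7 arrays and with these arrays left out.

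No histone gene passed the test between HOTAIR and EV. With limma over all 20419 tested probes, 34 were called at an adjusted p under 0.05 (0.167%), 27 higher and 7 lower, and 0 of the 68 histone probes were among them. The adjusted p of the histone probes lay between 0.525 and 0.997. Before adjustment, 5 of the 68 had a p under 0.05, all higher in HOTAIR, against 3.56% of all tested probes that were higher with such a p. The standard error of a histone probe's log2 difference had a median of 0.27 and ranged from 0.12 to 0.89, and the 95% interval, unadjusted for the number of probes, lay above 0 for those 5.

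The differences lay mostly on one side. The mean was higher in HOTAIR for 65 of the 68 histone probes, against 52.8% of all tested probes, and the median log2 difference was 0.37, against 0.01 over all tested probes. These probes share arrays and, in part, sequence, so the count is a description and not a set of independent observations. For 15 of the 68 the difference exceeded the SD of the EV arrays, and for 1, HIST2H2BE, it exceeded their whole range. The same was not counted over all tested probes. All 3 HOTAIR arrays were above all 4 EV arrays for 3 of the 68 probes, against 4.20% of all tested probes, and all were below for 0, against 3.50%. Non-overlap in either direction was thus 3 of 68 here and 7.70% over all tested probes.

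**Figure D1:**
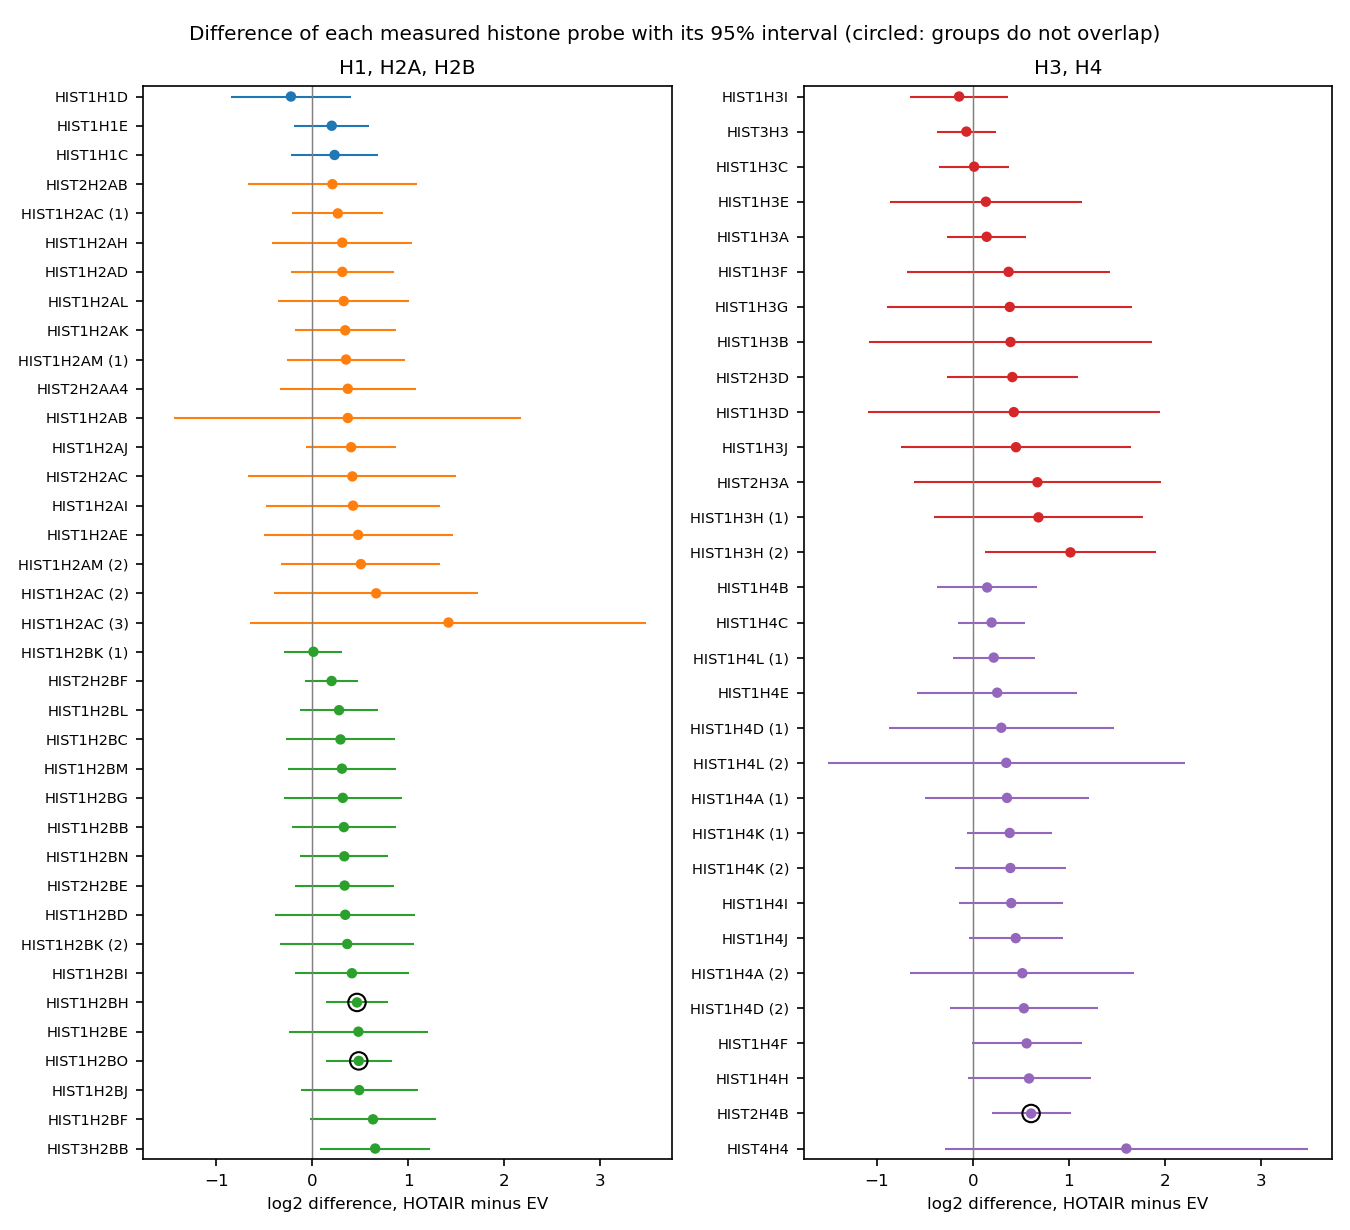
Log2 difference, HOTAIR minus EV, for the 68 measured histone probes, ordered by size within each class, with the 95% interval of the limma fit as bars. Points lie to the right of 0 for 65 probes, most bars cross 0, and the 3 circled probes are those whose groups do not overlap; digits in brackets number the probes of one gene.

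Leaving out arrays changed these counts. Without EV 2, the median log2 difference of the histone probes was 0.20 and 52 of 68 were higher in HOTAIR, against 48.7% of all tested probes. Without EV 4, the median was 0.51 and the groups did not overlap for 23 of 68, against 14.9% of all tested probes. Without HOTAIR 3, these were 0.51 and 27 of 68, against 21.2%. With both EV 2 and HOTAIR 3 left out, the median was 0.32, 63 of 68 were higher, and the groups did not overlap for 28 of 68, against 28.4%. No histone probe was called in any of these fits.

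**Figure D2:**
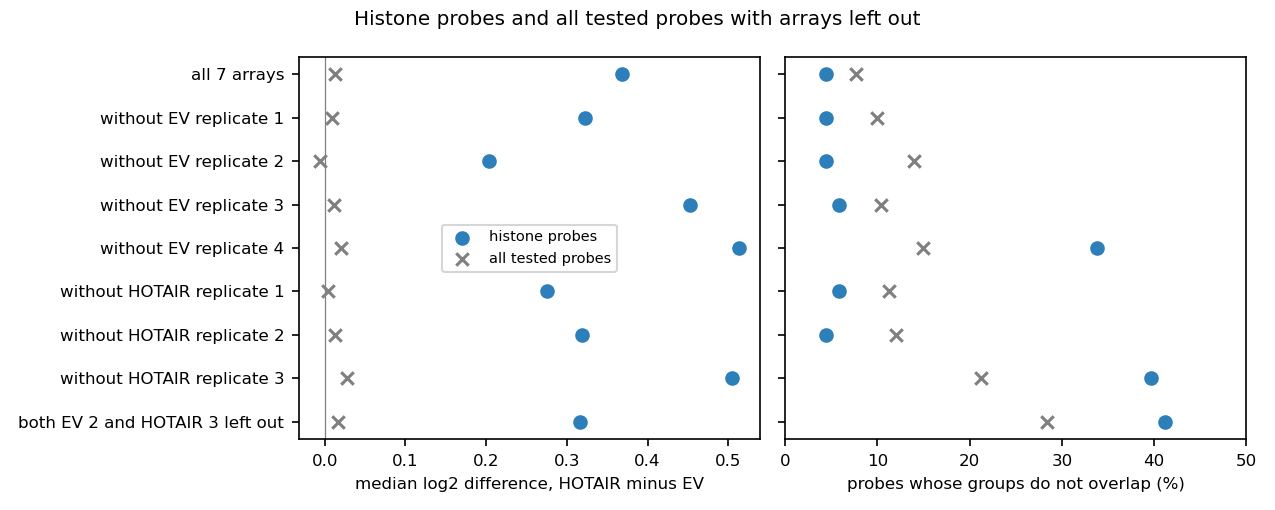
Median log2 difference of the histone probes (left) and the share of probes whose groups do not overlap (right), with all 7 arrays, with each array left out and with EV 2 and HOTAIR 3 both left out. Circles are histone probes and crosses all tested probes; the histone median stays above 0 in each fit, lowest at 0.20 without EV 2.

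Array by array, the histone median moved within the groups as much as between them. Relative to each probe's EV mean, the median histone probe was at -0.08 on EV 1, -0.41 on EV 2, 0.18 on EV 3 and 0.40 on EV 4. On the HOTAIR arrays it was at 0.56, 0.48 and 0.12. EV 3 and EV 4 were thus above HOTAIR 3, while HOTAIR 1 and HOTAIR 2 were above every EV array. Over all tested probes the same median stayed between -0.01 and 0.03 on the 7 arrays. The lowest EV value was on EV 1 or EV 2 for 66 of the 68 histone probes, and the highest was on EV 4 for 48. These positions were not counted over all tested probes, so they are not shown to be particular to histone probes.

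**Figure D3:**
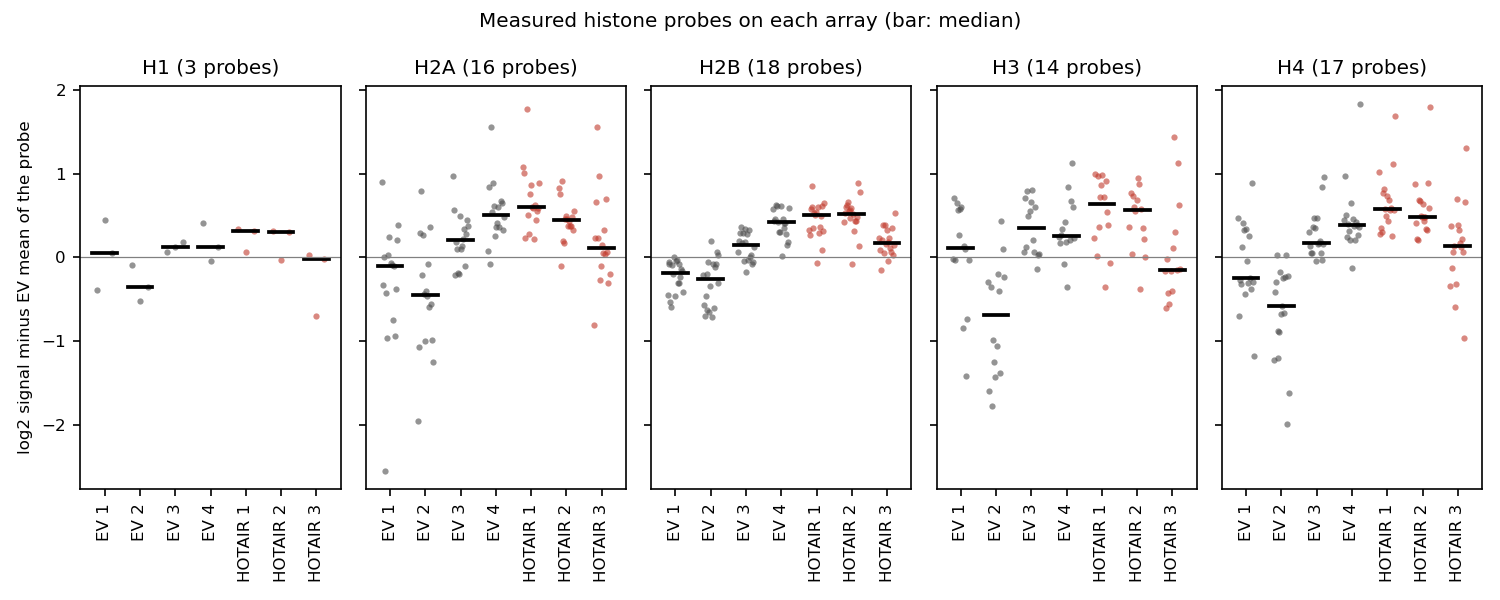
Log2 signal of each measured histone probe minus its EV mean, on each of the 7 arrays and for each class, with the median as a bar. EV 2 and HOTAIR 3 have the lowest median of their group in each class.

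Linker histones H1 showed little difference. The 3 measured genes had log2 differences of 0.23 (HIST1H1C), 0.20 (HIST1H1E) and -0.22 (HIST1H1D), and no groups were apart. HIST1H1C, an abundant somatic linker gene, was at 3.21, 3.50, 3.66 and 4.00 on the EV arrays and at 3.94, 3.91 and 3.62 on the HOTAIR arrays (limma, SE 0.20, adjusted p = 0.993). HIST1H1D, the member with the most negative difference, was at 3.63, 2.66, 3.31 and 3.14 in EV and at 3.25, 3.16 and 2.48 in HOTAIR (SE 0.27, adjusted p = 0.993). Both genes had overlapping groups, and HOTAIR 3 was the lowest HOTAIR array for each. Without HOTAIR 3 the HIST1H1D difference was 0.02 and without EV 1 -0.08, while that of HIST1H1C was 0.10 without EV 1 and 0.37 without EV 4.

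All 16 H2A probes were higher in HOTAIR on average, with a median log2 difference of 0.37 and a range of 0.21 to 1.42, and 0 of them had groups apart. HIST1H2AC, an H2A gene that also gives a polyadenylated transcript, had 3 measured probes on hg19 chromosome 6. Its brightest probe (chr6:26124461-26124520) was at -0.97, -1.71, -0.07 and 0.20 in EV and at 0.37, 0.12 and -0.41 in HOTAIR, a log2 difference of 0.66 (SE 0.46, adjusted p = 0.970), which was 0.31 without EV 2. A probe far downstream (chr6:26138822-26138881), which the array names HIST1H2AC but whose accession matched no current RefSeq gene, was at -2.86, -2.57, -3.07 and -2.94 in EV and at -2.62, -2.96 and -2.19 in HOTAIR, a difference of 0.27 (SE 0.20, adjusted p = 0.986). EV 2 was the lowest EV array on the first of these probes and the highest on the second. The remaining probe, the one well above background on 6 arrays, differed by 1.42 (SE 0.89, adjusted p = 0.949), with EV 1 at -7.70 and the other 6 arrays between -4.96 and -3.37. This probe, the top of the H2A range, passed the filter only through the HOTAIR arrays.

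The H2A genes of the HIST2 cluster overlapped between groups as well. HIST2H2AC, on hg19 at chr1:149858863-149858922, was at 2.93, 1.29, 2.92 and 3.02 in EV and at 3.42, 3.09 and 2.34 in HOTAIR, a difference of 0.42 (SE 0.47, adjusted p = 0.993). Its neighbour HIST2H2AB was at 2.11, 0.91, 2.35 and 2.22 in EV and at 2.49, 2.23 and 1.59 in HOTAIR, a difference of 0.21 (SE 0.38, adjusted p = 0.993). In both genes EV 2 lay far below the other EV arrays. Without EV 2 the differences were -0.00040 for HIST2H2AC and -0.12 for HIST2H2AB. HIST2H2AA4, whose probe also matches a second RefSeq gene, H2AC18, differed by 0.37 (SE 0.30, adjusted p = 0.993), and by 0.18 without EV 2, 0.24 without EV 1 and 0.59 without EV 4.

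All 18 measured H2B probes were higher in HOTAIR on average, with a median log2 difference of 0.34 and a range of 0.01 to 0.65. The H2B class held 2 of the 3 probes with groups apart, HIST1H2BH and HIST1H2BO, which are named because of their values. HIST1H2BH was at 2.32, 2.48, 2.48 and 2.83 in EV and at 3.06, 3.00 and 2.91 in HOTAIR. Its log2 difference was 0.46, a ratio of 1.38 (SE 0.14, 95% interval 0.14 to 0.79, adjusted p = 0.560). HIST1H2BO was at 1.89, 2.05, 2.16 and 2.40 in EV and at 2.74, 2.60 and 2.48 in HOTAIR, a difference of 0.48 (SE 0.15, 95% interval 0.14 to 0.83, adjusted p = 0.575). In each gene the highest EV array, EV 4, was just below the lowest HOTAIR array, HOTAIR 3. Both had a two-sided exact permutation p of 0.0571, where 0.0286 is the smallest that 35 splits of the arrays can give. With array weights in the limma fit HIST1H2BH was called, as is given with the alternatives.

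**Figure D4:**
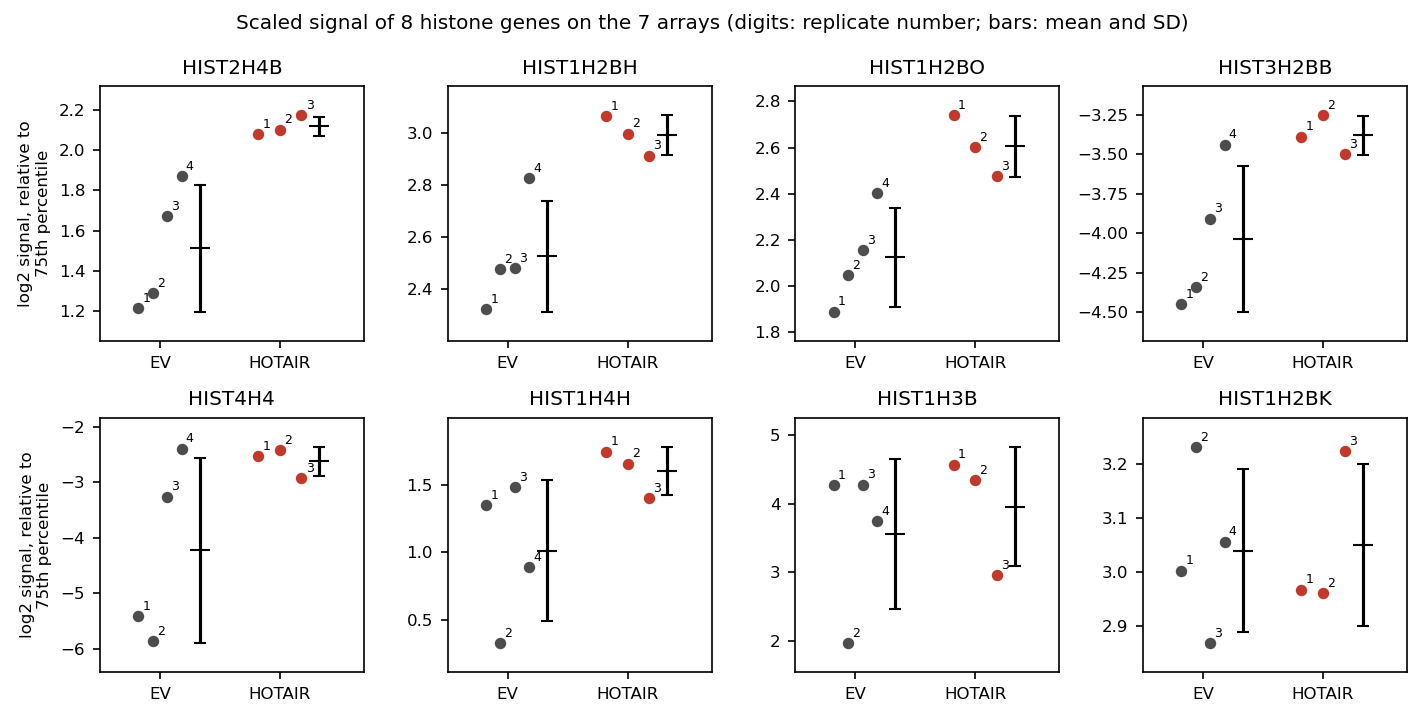
Scaled log2 signal of 8 histone genes, with each array as a point numbered by its replicate and the group mean and SD as a bar. HIST2H4B, HIST1H2BH and HIST1H2BO have all HOTAIR arrays above all EV arrays, HIST3H2BB overlaps by EV 4, HIST1H3B is low on EV 2 and HOTAIR 3, and HIST1H2BK is level.

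HIST3H2BB, the H2B gene of the HIST3 cluster (hg19, chr1:228646192-228646251), had the largest H2B difference. It was at -4.45, -4.34, -3.91 and -3.44 in EV and at -3.39, -3.25 and -3.50 in HOTAIR, a difference of 0.65 (SE 0.24, adjusted p = 0.758). The groups overlapped by EV 4 alone. With normexp background correction its difference was 0.31. HIST1H2BD differed by 0.34 (SE 0.31, adjusted p = 0.993), and by 0.11 without EV 2 to 0.59 without HOTAIR 3. In the HIST2 cluster, HIST2H2BE was at -3.27, -3.07, -3.21 and -2.98 in EV and at -3.04, -2.24 and -3.11 in HOTAIR, so its difference of 0.34 (SE 0.22, adjusted p = 0.958) came with 1 high array, HOTAIR 2, and was 0.06 without it. Another HIST2H2BE probe (hg19, chr1:149857064-149857123) was well above background on 0 arrays and was not tested. HIST2H2BF, whose measured probe also matches a pseudogene, H2BP1, differed by 0.20 (SE 0.12, adjusted p = 0.943).

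HIST1H2BK, a gene with polyadenylated transcripts, had 2 probes that behaved differently across arrays. The downstream probe (hg19, chr6:27106191-27106250, minus strand) was at 3.00, 3.23, 2.87 and 3.06 in EV and at 2.97, 2.96 and 3.22 in HOTAIR, a difference of 0.01 (SE 0.13, adjusted p = 0.997). The probe nearer the gene's start (chr6:27114437-27114496) was at 1.44, 0.75, 1.75 and 1.93 in EV and at 2.08, 1.99 and 1.43 in HOTAIR, a difference of 0.36 (SE 0.30, adjusted p = 0.993). It also matches H2BC13, H2BC15 and H2BC18. EV 2 and HOTAIR 3 were the highest arrays of their groups on the downstream probe and the lowest on the other.

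The H3 probes differed most between arrays of one group. Their median SD over the EV arrays was 0.78, and EV 2 was the lowest EV array for 11 of 14. Relative to the other EV arrays, the median H3 probe on EV 2 was at -0.92, against -0.34 for H2B, -0.48 for H1, -0.60 for H2A and -0.78 for H4. Between groups, 12 of 14 H3 probes were higher in HOTAIR, with a median difference of 0.39, and 0 had groups apart. HIST1H3B shows the pattern, and is named because of its values. It was at 4.27, 1.97, 4.28 and 3.74 in EV and at 4.57, 4.34 and 2.96 in HOTAIR, a difference of 0.39 (SE 0.63, adjusted p = 0.993).

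HIST1H3H had the largest H3 difference and was read by 2 probes. The coding probe was at 2.13, 0.47, 2.33 and 1.17 in EV and at 2.51, 2.48 and 1.64 in HOTAIR, a difference of 0.68 (SE 0.47, adjusted p = 0.970), which was 0.33 without EV 2. The probe with the stem-loop shown above was at -3.80, -3.16, -2.75 and -2.12 in EV and at -2.23, -2.07 and -1.51 in HOTAIR, a difference of 1.02, or a ratio of 2.02 (SE 0.38, 95% interval 0.13 to 1.91, adjusted p = 0.760). HOTAIR 3 was the lowest HOTAIR array on the coding probe and the highest on the stem-loop probe. The groups overlapped on both probes.

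HIST2H3A, also read through its stem-loop, was at 2.56, 4.41, 3.84 and 5.11 in EV and at 4.52, 4.33 and 5.10 in HOTAIR, a difference of 0.67 (SE 0.55, adjusted p = 0.993). HIST2H3D (hg19, chr1:149400182-149400241), whose probe also matches H3C14 and H3C15, was at 3.71, 4.56, 4.49 and 5.05 in EV and at 4.84, 4.67 and 5.08 in HOTAIR, a difference of 0.41 (SE 0.29, adjusted p = 0.973). HIST2H3A is H3C15, and its probe also matches H3C14, so both probes share these genes and are not independent. On both, EV 1, not EV 2, was the lowest array and HOTAIR 3 the highest of its group. Without EV 1 the differences were 0.20 for HIST2H3A and 0.17 for HIST2H3D, and for HIST2H3A the difference was 1.05 without EV 4 and 0.45 without HOTAIR 3. The negative H3 members were HIST1H3I, at -0.14 (SE 0.22, adjusted p = 0.993; -0.36 to -0.03 with 1 array left out), and HIST3H3, at -0.07 (SE 0.13, adjusted p = 0.993). HIST3H3 was at 4.95, 4.75, 5.02 and 5.21 in EV and at 4.92, 4.99 and 4.84 in HOTAIR.

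All 17 H4 probes were higher in HOTAIR on average, with a median log2 difference of 0.39 and a range of 0.15 to 1.60. The top of that range is HIST4H4, which passed the filter only through the HOTAIR arrays. HIST2H4B had the lowest adjusted p of all histone probes. It was at 1.21, 1.29, 1.67 and 1.87 in EV and at 2.08, 2.10 and 2.17 in HOTAIR, with means of 1.51 ± 0.31 (SD, n = 4) and 2.12 ± 0.05 (SD, n = 3). Every HOTAIR array was above every EV array. The log2 difference was 0.61, a ratio of 1.52 (SE 0.18, 95% interval 0.20 to 1.02, limma adjusted p = 0.525). The two-sided exact permutation p was 0.0571.

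Like all 17 H4 probes, those that overlap the probe of HIST2H4B were higher in HOTAIR on average. None of the overlapping probes had groups apart. HIST1H4F differed by 0.56 (SE 0.25), HIST1H4I by 0.40 (SE 0.23) and the overlapping probe of HIST1H4K by 0.39 (SE 0.25). That HIST1H4K probe also matches H4C11 and H4C9, and H4C9 is HIST1H4I, so it is not a separate gene's value. HIST1H4H, an H4 gene with polyadenylated transcripts, was at 1.35, 0.33, 1.48 and 0.89 in EV and at 1.74, 1.65 and 1.40 in HOTAIR, a difference of 0.59 (SE 0.27, adjusted p = 0.903), which was 0.36 without EV 2. EV 3 lay above HOTAIR 3 there.

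HIST4H4, the single gene of the HIST4 cluster (hg19, chr12:14924006-14924065, minus strand), had the largest difference of any histone probe as scaled here and a wide error. It was at -5.40, -5.85, -3.26 and -2.39 in EV and at -2.53, -2.43 and -2.92 in HOTAIR. EV 1 and EV 2 were not well above background, so the probe was tested only through the HOTAIR arrays. EV 4 was above all HOTAIR arrays. The log2 difference was 1.60 (SE 0.81, 95% interval -0.29 to 3.49, adjusted p = 0.926). It rests on dim EV values, and was 0.52 with normexp background correction, below the 0.83 of the HIST1H3H coding probe, and 1.06 without EV 2.

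How low EV 2 and HOTAIR 3 were differed between probes of the same gene name. Of the members, 8 genes had several measured probes, with the hg19 starts of the outer probes between 26 and 14419 bases apart. The outer probes of HIST1H4A overlap each other in position, as do those of HIST1H4D. Not every pair is sure to read 1 gene. The 3′ probe of HIST1H2AC matched no current RefSeq gene, and the 5′ probe of HIST1H2BK also matches H2BC13, H2BC15 and H2BC18. On EV 2, relative to the other EV arrays, the probe nearest the 5′ end was lower than the probe nearest the 3′ end in 6 of the 8 genes, and the median of 5′ minus 3′ was -1.11 on the log2 scale. On HOTAIR 3, relative to the other HOTAIR arrays, this held in 7 of the 8, with a median of -0.81. HIST1H4L showed the widest gap. Its 5′ probe was at -1.81, -4.69, -1.86 and -2.43 in EV and at -1.58, -1.81 and -3.66 in HOTAIR, while its 3′ probe, 105 bases on, was at 4.24, 4.65, 4.59 and 5.01 in EV and at 4.87, 4.95 and 4.69 in HOTAIR. HIST1H4D went the other way on both arrays. The HOTAIR minus EV difference was above 0 on both outer probes of all 8 genes.

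**Figure D5:**
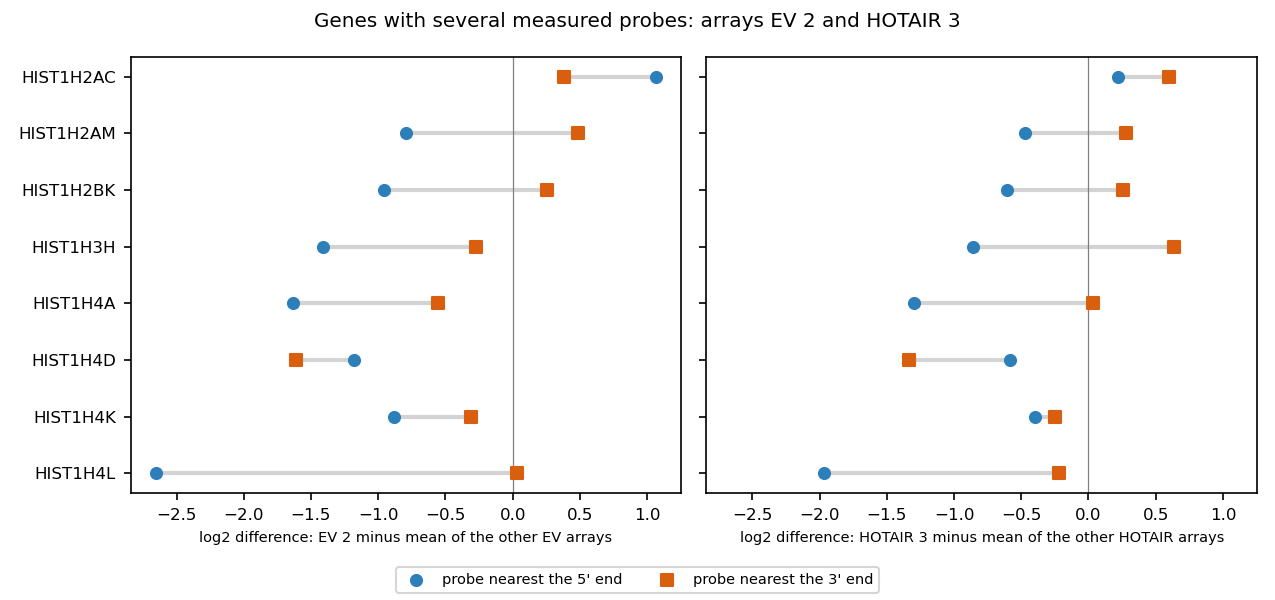
Log2 signal on EV 2 relative to the other EV arrays (left) and on HOTAIR 3 relative to the other HOTAIR arrays (right), for the probes nearest the 5′ end (circles) and the 3′ end (squares) of the 8 histone gene names with several measured probes. The circle is left of the square for 6 genes on EV 2 and for 7 on HOTAIR 3; the middle probe of HIST1H2AC is not drawn.

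The 6 probes with stem-loop letters had differences between 0.38 and 1.02, with a median of 0.56, against 0.35 for the other 62 histone probes. On EV 2 their median was -0.29 relative to the other EV arrays, against -0.57 for the other 62. EV 1 was the lowest EV array for 5 of the 6, and for 22 of the other 62. None of these 6 had groups apart.

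The promoters of the members differ by class. Among 61 members with a RefSeq promoter (GRCh38.p14), the octamer ATTTGCAT, a site type bound by the factor OCT1, was looked for on both strands in the 250 bases before the gene start. It was found in 14 of 18 H2B promoters (77.8%), 10 of 14 H2A promoters (71.4%), 1 of 11 H3 promoters and in none of the 6 H1 or 12 H4 promoters, against 1.63% of all 35116 promoters. By probe position, some H2A and H2B genes lie close together on opposite strands, such as HIST1H2AM and HIST1H2BO. The same octamer may then count for both genes. Whether promoters share bases was not checked, so the H2A and H2B counts may not be separate. The letters TATAAA were found in 40 of the 61 (65.6%, against 3763 of the 35116 promoters) and CCAAT in 52 (85.2%, against 32.0%), with CCAAT in 3 of the 12 H4 promoters. The H2B promoters below belong to the pair with groups apart and to HIST1H2BK, whose downstream probe was level. They run from 6 bases before the octamer to the gene start, and capitals mark the octamer on either strand and, in HIST1H2BK, TATAAA.
HIST1H2BH (GRCh38.p14, chr6:26251559-26251613, plus strand): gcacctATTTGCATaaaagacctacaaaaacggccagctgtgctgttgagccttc
HIST1H2BO (chr6:27893270-27893424, plus strand): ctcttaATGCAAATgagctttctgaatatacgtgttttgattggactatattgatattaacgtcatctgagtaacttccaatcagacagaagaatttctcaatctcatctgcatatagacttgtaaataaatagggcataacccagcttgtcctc
HIST1H2BK (chr6:27146859-27146910, minus strand): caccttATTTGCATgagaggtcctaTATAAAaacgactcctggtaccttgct
The octamer begins 49 bases before the start in HIST1H2BH, 149 in HIST1H2BO, where it reads on the other strand, and 46 in HIST1H2BK. These matches describe letters only, and no binding was measured.

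Genes that act on histone mRNA, listed with earlier results of these data known, showed no called change. Of 20 genes of histone mRNA synthesis and 3′ end processing, 19 were tested, and 0 were called higher or lower. Of these, 7 had a higher and 12 a lower mean in HOTAIR, and the median log2 difference was -0.05. SLBP, the stem-loop binding protein, was at 3.89 ± 0.09 (SD, n = 4) in EV and at 3.60 ± 0.13 (SD, n = 3) in HOTAIR. All HOTAIR arrays were below all EV arrays, with a difference of -0.29 (SE 0.11, limma adjusted p = 0.783). By brightest probe, 1 of the 19 tested genes was apart in this direction, against 3.50% of all tested probes. NPAT, the coactivator of histone gene transcription in S phase, differed by -0.24 (SE 0.20, adjusted p = 0.993).

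No gene of the replication, chaperone and variant histone lists was called. All 24 replication genes were tested, 0 were called, 10 were higher and 14 lower, and the median was -0.06. PCNA, the sliding clamp of DNA polymerase, is named because of its value. Its brightest probe differed by -0.22 (SE 0.10, limma adjusted p = 0.896), with all HOTAIR arrays below all EV arrays. A second PCNA probe differed by -0.09 (SE 0.20, limma adjusted p = 0.993), with overlapping groups. By brightest probe, 1 of the 24 genes was apart in this direction, against 3.50% of all tested probes. Over all 29 tested probes of the replication genes, the median SD of the EV arrays was 0.16 and the median on EV 2 was -0.09 relative to the other EV arrays. Single probes among them were low on both arrays as the histone probes were. A second probe of MCM7, a subunit of the replicative helicase, was at -2.39 on EV 2 and -1.47 on HOTAIR 3 relative to the others of its group, while its brightest probe was at -0.26 and -0.04. Of 19 histone chaperones, all were tested and 0 were called, with a median of -0.02. HIRA, a chaperone also named because of its value, differed by 0.26 (SE 0.10, limma adjusted p = 0.760), with all HOTAIR arrays above all EV arrays. By brightest probe, 1 of the 19 chaperones was apart in this direction, against 4.20% of all tested probes. Of the 11 variant histone genes, which are expressed outside S phase and have polyadenylated mRNAs as a rule, 0 were called, the median was 0.06 and the range was -0.89 to 0.13. The lowest was H1FX, a linker variant named because of its value, at -0.89 (SE 0.69, adjusted p = 0.988) with HOTAIR 1 at -4.02 and the other 6 arrays between -1.83 and -0.92. H2AFZ and H2AFX, variants of H2A, differed by 0.07 (SE 0.16) and 0.03 (SE 0.17). H3F3A and H3F3B, which both encode H3.3, differed by 0.06 (SE 0.13) and 0.07 (SE 0.22). The difference between these lists and the cluster genes was not tested.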

How the data were processed

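The members and the gene lists were chosen with earlier results of these data known. Per the file headers, the authors deposited Agilent Feature Extraction 10.7.3.1 output for 7 one-colour arrays, with spot intensity in linear units after background subtraction, and a table of the same intensity values, within 0.498% of the scanner values. Unit "other" columns of the deposited files gave probe names and detection flags. Spot intensities were taken as log2, and the array's 75th percentile of these log2 values was subtracted. The results were then averaged over a probe's spots, leaving out spots flagged as outliers. Probes called well above background on every array of a group (at least 50% of spots), 20419 of 42405, were tested with limma 3.58.1 (R 4.3.3; lmFit, eBayes, Benjamini-Hochberg over all tested probes, adjusted p under 0.05), 4 EV against 3 HOTAIR arrays, no covariate. The procedure was tested on simulated data. Where a gene had several tested probes, the brightest stands for it. Named genes were, beside any called, the extremes of each class, members apart by at least 0.5, all tested HIST2, HIST3 and HIST4 members, genes whose probes differ in direction, and HIST1H1C, HIST1H2AC, HIST1H2BD, HIST1H2BK, HIST1H4H and HIST2H2BE. Alternatives were other background corrections, scalings, filters, fits and left-out arrays. The number of arrays limits the precision. One marker of another cell type is not reported here.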

Additional observations from a re-analysis of the deposited data

Results flagged for a closer look

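Among 25 sets of 4 EV values (19 named genes, all members and 5 classes, by the gap of the outermost array to its neighbour as a share of the range), 3 exceeded Dixon's 95% critical share for 4 values, where chance alone flags about 1 in 20. In each of them array EV 2 was the low one. The share was 0.944 for HIST2H2AC, 0.836 for HIST2H2AB and 0.834 for the median of the 3 H1 probes. The 2 H2A genes are neighbours, and all 25 sets share the same arrays, so the flags are not independent.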

How the results depend on the processing

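No histone probe was called under any limma alternative except array weights, where 1 was called (HIST1H2BH, log2 difference 0.52, adjusted p = 0.044) and 324 of all tested probes. By rank product, 2 histone probes (of HIST1H2AC and HIST4H4) were among the 100 highest (0.49% of tested probes) and none among the 100 lowest, and both are probes with EV arrays not well above background. Both passed the filter only through the HOTAIR arrays. The 34 calls over all probes became 12 with normexp, 14 without a filter, 22 with the filter on all arrays, 20 with trend and robust moderation, and 9 to 30 with 1 array left out. The count of histone probes with groups apart, 3, became 6 with normexp (7.84% of all tested probes), 6 with the deposited table unscaled (5.01%), 28 without EV 2 and HOTAIR 3 (28.4% of all tested probes), and 3 to 27 with 1 array left out. Their median log2 difference was 0.20 to 0.51 with 1 array left out and kept its sign under every alternative run. With a replicate block on arrays 1 to 3, which drops EV 4, 0 of all tested probes were called, 0 histone probes were called, 23 had groups apart and the median was 0.51. Deviations of same-numbered arrays correlated at 0.39, -0.37 and -0.41, and those of EV 2 and HOTAIR 3 at 0.62. Since EV 2 and HOTAIR 3 stood apart alike, these values cannot decide whether the numbers pair the samples. Of 360 values of named genes under alternatives, 349 kept their sign and 11 did not, none of them called. With 1 array left out, HIST1H1D ranged from -0.40 to 0.018, HIST1H2BK from -0.076 to 0.075, HIST2H2AB from -0.12 (without EV 2) to 0.46, HIST2H2AC from -0.00040 (without EV 2) to 0.72 and HIST3H3 from -0.14 to 0.010. HIST1H2BK was at -0.0013 with quantile normalization and -0.012 without EV 2 and HOTAIR 3, HIST2H2BF at -0.060 with the GC correction, and HIST3H3 at 0.010 with the replicate block. The causes were not tested. Detection flags limit HIST4H4 and 1 HIST1H2AC probe, which were not well above background on every array.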
